A study of Mus musculus with 3 samples.

Results

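The genes described here carry the signal of IFN-γ from the cell surface to the nucleus and then damp it. They are Ifngr1 and Ifngr2, which encode the chains of the IFN-γ receptor, the kinase genes Jak1 and Jak2, the transcription factor gene Stat2, and the feedback inhibitor gene Socs1. These 6 genes were taken by name from the array design, out of 33597 gene names measured on every array. Each was represented by 1 probe with 1 spot, and each spot was well above background, was not saturated, and carried no outlier mark on all 3 arrays.

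IFN-γ binds a receptor built from IFNGR1, the ligand-binding chain, and IFNGR2, the accessory chain. JAK1 is held by IFNGR1 and JAK2 by IFNGR2, and on binding the kinases phosphorylate each other and the receptor, which recruits STAT proteins. STAT dimers act at GAS elements of genes such as Irf1, whereas STAT2 and IRF9 belong to ISGF3, the complex that acts at ISRE elements and is best known from the response to type I interferons. SOCS1 is induced by this signaling, binds JAK kinases, and shuts them down, and macrophages that lack it are hypersensitive to IFN-γ.

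BMDMs, which are macrophages grown from bone marrow with M-CSF, came from C57BL/6J mice and were stimulated for 20 h. The labels give 3 conditions with 1 array each, CpG, IFN-g+IL-10RB, and triple, which are called CpG, IFN-γ + αIL-10R, and Triple here. CpG is a DNA ligand of TLR9, αIL-10R is an antibody against the IL-10 receptor, and Triple combined CpG, IFN-γ, and αIL-10R. M-CSF came from medium of L929 cells that carry a human M-CSF plasmid, and the labels do not say how many mice gave the marrow. No array held unstimulated BMDMs or BMDMs given IFN-γ alone, so that IFN-γ and αIL-10R cannot be told apart and no level here is relative to a resting cell. The comparisons ask which of these genes differ when CpG is added to IFN-γ + αIL-10R and when IFN-γ + αIL-10R is added to CpG.

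Values are the processed signal, an intensity on a linear scale, written with the error given by the scanner software. That error was close to a fixed share of the signal, such as 1343 for 13427 (Ifngr1 in CpG) and 5088 for 50881 (Socs1 in Triple). It is not a spread between replicates. Signals called within or clear of each other's error were compared by that share and before scaling. A log2 fold is the difference between arrays after each was shifted by its 75th percentile, with shifts at signals of 4550 (CpG), 4473 (IFN-γ + αIL-10R), and 4377 (Triple). The ± beside a log2 fold is a technical SD taken from probes with replicate spots, 0.13 for Triple versus IFN-γ + αIL-10R, 0.12 for CpG versus IFN-γ + αIL-10R, and 0.13 for Triple versus CpG. It does not hold the difference between cultures, so that no fold below has a replicate check and no p-value is given. Over probes in the signal range of the members alone, the SD was smaller, at 0.070, 0.070, and 0.075 in the same order. A gene past 2-fold, with the brighter array well above background, is called up or down. The 3 comparisons share arrays, and each follows from the other two. In RNA of whole cultures, fewer expressing cells and less RNA per cell cannot be told apart.

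The cultures carried macrophage transcripts on every array. All 7 measured macrophage markers (of 8 listed) were well above background, with a summed signal of 610772 in CpG, 572568 in IFN-γ + αIL-10R, and 522271 in Triple. Single markers differed more than this sum. In Triple versus IFN-γ + αIL-10R 1 was up and 1 down, in CpG versus IFN-γ + αIL-10R 2 and 2, and in Triple versus CpG 1 and 0. Cd14 gave 55389 in CpG, 5534 in IFN-γ + αIL-10R, and 90961 in Triple, while Cd68 gave 153505, 190933, and 83203. Cd3d, Cd3g, and Cd8a of T cells, Ms4a1 and Pax5 of B cells, and Ncr1 of NK cells were not well above background on any array. Other markers of these cells were, on all 3 arrays, namely 3 of 6 T cell, 2 of 4 B cell, and 1 of 5 NK cell markers. Signals were 806 to 869 for Cd3e, 1646 to 1943 for Cd4, 94.4 to 169 for Lck, and 196 to 219 for Prf1. Among 6 neutrophil markers, 3 were well above background in CpG, 2 in IFN-γ + αIL-10R, and 3 in Triple, with summed signals of 3495, 9363, and 4354. The difference in this sum came with Ly6g, whose signal was 555 in CpG, 7699 in IFN-γ + αIL-10R, and 2658 in Triple. Elane, at 2839, 1615, and 1539, was highest in CpG instead, Camp gave 72.9 in CpG and 139 in Triple and was not well above background in IFN-γ + αIL-10R, and Mpo, Ngp, and Ltf were not well above background on any array. The part of Ly6g-positive cells in the results below was not tested. Dendritic cell markers summed to 36432 in CpG, 36248 in IFN-γ + αIL-10R, and 32828 in Triple. Most of this sum was Siglech, read from 1 of its 3 probes, and its other probes were not well above background on any array. In the same order, 2, 3, and 4 of 5 dendritic cell markers were well above background. Of these, 3 were up in Triple versus each of the other arrays, as was Jak2. Ccr7 gave 319, 225, and 2892, Zbtb46 gave 133 in Triple and 36.3 in IFN-γ + αIL-10R and was not well above background in CpG, and Xcr1 was well above background in Triple alone, at 60.7, while Flt3 was not well above background on any array, and the part of such cells was not tested. B cell markers summed to 880, 271, and 166, nearly all of it Cd79b in CpG, and fibroblast markers to 539, 326, and 481. The B cell markers detected were Cd79a, at 66.6, 75.5, and 43.6, and Cd79b, at 801, 182, and 108. Cd79b was up in CpG versus IFN-γ + αIL-10R and down in Triple versus CpG, at log2 folds of 2.11 and −2.84.

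Upstream sequence is shown for the members that held a searched motif, because these motifs are the known binding elements of the pathway's own factors and of NF-κB, the factor that TLR9 activates. The 250 bases before an annotated start of each member were taken from RefSeq (GRCm38.p6), written 5′ to 3′ on the strand of the gene, and searched on both strands. For Jak1 the start used lies inside the gene span given below, so that its window, chr4:101265224-101265473, overlaps that span. The GAS element was searched as TTCNNNGAA, the ISRE core as GAAA, any 2 bases, and GAAA, and the NF-κB element as GGG, any 2 bases, and TTTCC, with the form that has AC at the free positions counted also on its own. Capitals mark the matches.
Socs1, chr16:10785537-10785786, minus strand: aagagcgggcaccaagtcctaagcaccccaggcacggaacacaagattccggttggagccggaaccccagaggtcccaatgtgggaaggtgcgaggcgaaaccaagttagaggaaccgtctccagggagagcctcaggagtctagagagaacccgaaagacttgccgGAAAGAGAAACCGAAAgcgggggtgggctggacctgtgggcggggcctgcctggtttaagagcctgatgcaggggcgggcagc
Stat2, chr10:128270248-128270497, plus strand: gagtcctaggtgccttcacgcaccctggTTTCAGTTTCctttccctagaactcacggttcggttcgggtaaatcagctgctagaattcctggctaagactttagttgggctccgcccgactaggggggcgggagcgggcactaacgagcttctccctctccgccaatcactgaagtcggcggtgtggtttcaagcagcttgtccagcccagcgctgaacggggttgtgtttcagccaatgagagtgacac
Ifngr2, chr16:91546809-91547058, plus strand: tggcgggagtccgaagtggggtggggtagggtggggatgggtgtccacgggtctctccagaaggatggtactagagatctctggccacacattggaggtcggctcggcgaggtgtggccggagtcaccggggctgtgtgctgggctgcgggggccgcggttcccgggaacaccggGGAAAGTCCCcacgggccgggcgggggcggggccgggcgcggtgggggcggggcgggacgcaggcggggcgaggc

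In Socs1 the ISRE core matched at 2 overlapping places on the gene's own strand, GAAAGAGAAA from 83 to 74 bases before the start and GAAACCGAAA from 77 to 68. In Stat2 it matched at 1 place on the opposite strand, as GAAACTGAAA from 222 to 213 bases before the start. The core was present in 2 of 6 members and in 2.98% of the 32851 upstream windows of the same length. The NF-κB element matched in 1 of 6 members, Ifngr2, on the opposite strand from 75 to 66 bases before the start, with AC at the free positions. The element was present in 1.41% of all windows and its AC form in 0.14%. The GAS letters were in 0 of 6 members and in 7.02% of all windows. A match is a run of letters, and no binding was measured.

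The members ranged from level to widely different over the arrays. Socs1 spanned 49.9-fold over the arrays, Jak2 3.84-fold, Stat2 2.03-fold, Ifngr1 1.65-fold, Ifngr2 1.55-fold, and Jak1 1.09-fold. Among the 15888 genes whose signal cleared background on every array, 36 had a larger range than Socs1 and 1051 a larger range than Jak2, whereas 94.4% had a larger range than Jak1. The order of the arrays also differed by member. CpG was lowest for Socs1, Jak2, and Stat2, Triple was lowest for Ifngr1, and IFN-γ + αIL-10R was lowest for Ifngr2. No lowest array is given for Jak1, whose log2 fold of CpG versus IFN-γ + αIL-10R ranged from −0.05 to 0.04 over the scalings and other settings.

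**Figure D1:**
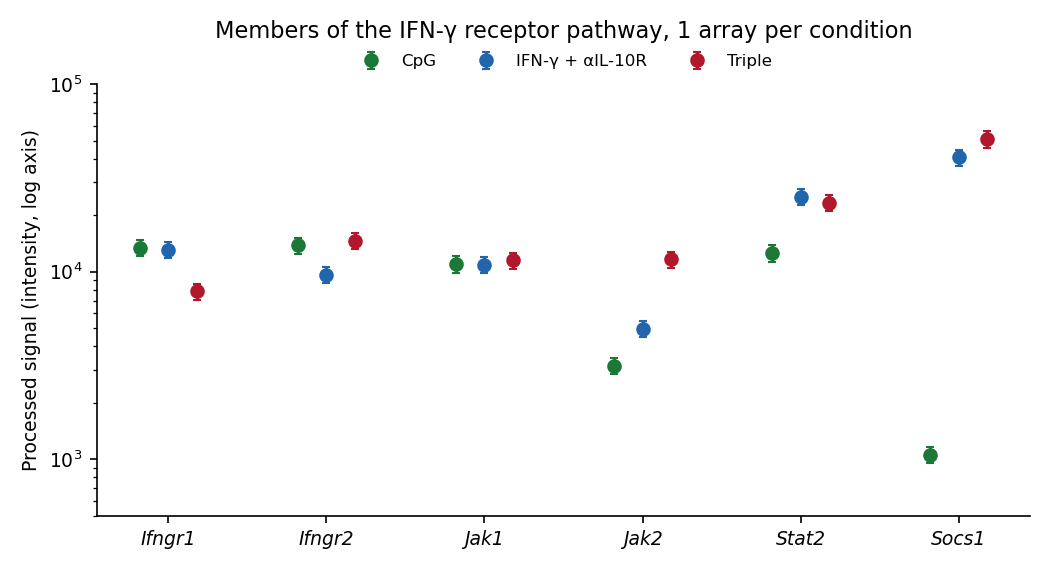
Processed signal (intensity, log axis) of the 6 members on the CpG, IFN-γ + αIL-10R, and Triple arrays, 1 point per array, with the scanner software's error as the bar. That error is close to a fixed share of each signal and is not a spread between replicates. Socs1 sits at 1059 in CpG and at 40651 and 50881 on the arrays with IFN-γ, Jak2 steps up from 3150 to 4952 to 11633, and the 3 points of Jak1 lie within each other's error. Levels of different genes come from different probes and are not to be set against each other.

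Versus IFN-γ + αIL-10R, Triple was lower for the receptor chain gene Ifngr1 and higher for Ifngr2, and neither passed 2-fold in any comparison. Ifngr1 (chr10:19591949-19610229, RefSeq on GRCm38.p6, as for all members) gave 13427 ± 1343 in CpG, 13061 ± 1306 in IFN-γ + αIL-10R, and 7851 ± 785 in Triple. Triple was thus the low array, and CpG and IFN-γ + αIL-10R lay within each other's error. The log2 fold was −0.70 ± 0.13 for Triple versus IFN-γ + αIL-10R (1.63-fold lower), −0.72 ± 0.13 for Triple versus CpG (1.65-fold lower), and 0.02 ± 0.12 for CpG versus IFN-γ + αIL-10R. The differences to Triple exceed 5 technical SDs, yet 21.7% and 20.4% of the 15888 genes had a larger absolute fold in those comparisons.

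Ifngr2 (chr16:91547059-91564007) gave 13800 ± 1380 in CpG, 9634 ± 963 in IFN-γ + αIL-10R, and 14624 ± 1462 in Triple. Here the array without CpG was low, and the arrays with CpG lay within each other's error. Log2 folds versus IFN-γ + αIL-10R were 0.63 ± 0.13 in Triple (1.55-fold) and 0.49 ± 0.12 in CpG (1.41-fold), and Triple versus CpG was 0.14 ± 0.13, about the technical SD. Ifngr2 is also the member whose upstream window held the NF-κB match shown above, and whether the match bears on these levels was not tested.

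The kinases of the receptor differed from each other. Jak1 (chr4:101151974-101265282) gave 10964 ± 1096 in CpG, 10871 ± 1087 in IFN-γ + αIL-10R, and 11498 ± 1150 in Triple. These signals did not differ beyond their error, and the log2 folds were 0.11 ± 0.13 for Triple versus IFN-γ + αIL-10R, −0.01 ± 0.12 for CpG versus IFN-γ + αIL-10R, and 0.12 ± 0.13 for Triple versus CpG. Scaled on spike-in probes, the fold of Triple versus IFN-γ + αIL-10R was −0.02, so that its sign is not settled.

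Jak2 (chr19:29251803-29313095) gave 3150 ± 315 in CpG, 4952 ± 495 in IFN-γ + αIL-10R, and 11633 ± 1163 in Triple. The 3 arrays were clear of each other's error, with CpG lowest and Triple highest. Jak2 was up in Triple, by 1.26 ± 0.13 versus IFN-γ + αIL-10R (2.40-fold) and by 1.94 ± 0.13 over CpG (3.84-fold). CpG versus IFN-γ + αIL-10R was −0.68 ± 0.12 (1.60-fold lower) and did not pass the threshold. Jak2 therefore stood in Triple 1.26 above the higher of the other arrays, a gap exceeded by 1.69% of the 15888 genes. Of the other genes at the receptor, Ifngr2 was also higher in Triple than in IFN-γ + αIL-10R, by 0.63, while Ifngr1 was lower and Jak1 lay within error.

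Stat2 (chr10:128270498-128292853) separated the arrays by the presence of IFN-γ + αIL-10R. It gave 12553 ± 1255 in CpG, 25096 ± 2510 in IFN-γ + αIL-10R, and 23298 ± 2330 in Triple, and the last 2 lay within each other's error. CpG was below IFN-γ + αIL-10R by 1.02 ± 0.12 on the log2 scale, or 2.03-fold, which passed the threshold by less than the technical SD. Triple versus CpG was 0.95 ± 0.13 (1.93-fold), inside the threshold by less than the technical SD (0.85 to 1.02 over 12 alternatives, past it in 3), and Triple versus IFN-γ + αIL-10R was −0.08 ± 0.13. The difference itself was more than 8 technical SDs in CpG versus IFN-γ + αIL-10R, but which side of 2-fold it fell on depended on the scaling, with log2 folds from −1.06 to −0.97 over the same alternatives. For Triple versus IFN-γ + αIL-10R the alternatives ranged from −0.21 to 0.04, so that no direction is given.

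Socs1 (chr16:10783808-10785536) showed the largest difference of the 6 members in CpG versus IFN-γ + αIL-10R and in Triple versus CpG. It gave 1059 ± 106 in CpG, 40651 ± 4065 in IFN-γ + αIL-10R, and 50881 ± 5088 in Triple. CpG stood far below the arrays with IFN-γ + αIL-10R, though its spot was still 29.5 times the local background. Socs1 was down in CpG versus IFN-γ + αIL-10R by 5.29 ± 0.12 on the log2 scale (39.0-fold), and 15 of 15888 genes had a lower fold. It was up in Triple versus CpG by 5.64 ± 0.13 (49.9-fold), and 19 genes had a higher fold. Triple versus IFN-γ + αIL-10R was 0.35 ± 0.13 (1.28-fold), above 2 technical SDs but exceeded in size by 45.6% of the genes.

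**Figure D2:**
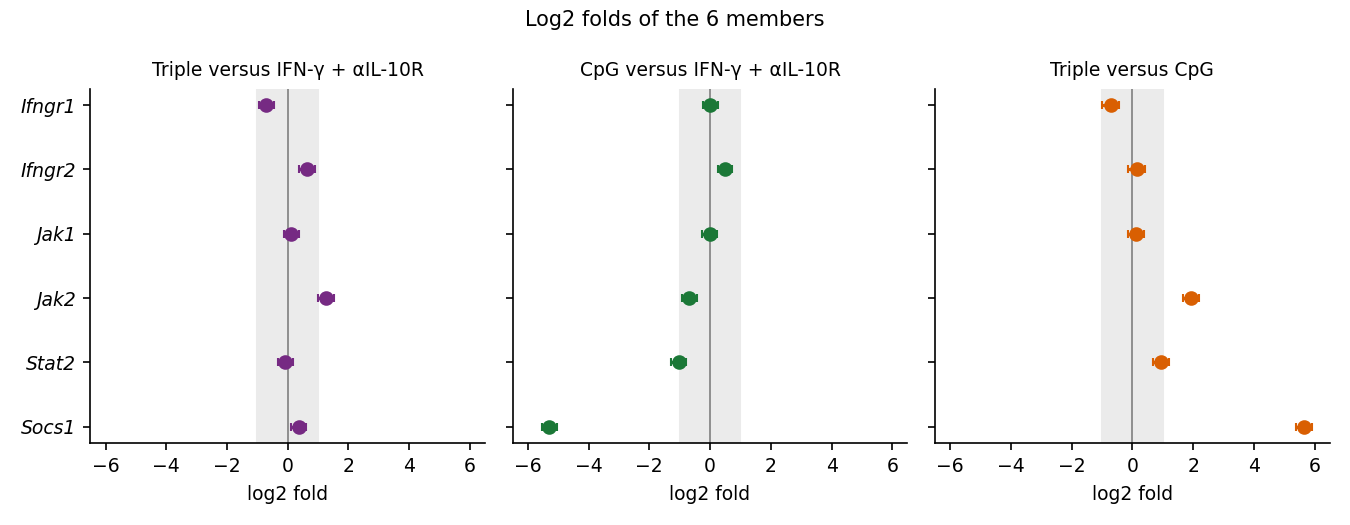
Log2 folds of the 6 members in the 3 comparisons, with bars of 2 technical SDs and the range inside 2-fold shaded. Jak2 is outside the shading in Triple versus IFN-γ + αIL-10R and in Triple versus CpG, Socs1 lies at −5.29 and 5.64 in the comparisons with CpG, and Stat2 lies on the edge of the shading in those same comparisons.

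The members past 2-fold were counted beside all genes. In Triple versus IFN-γ + αIL-10R 1 of 6 members was up and 0 were down, while 3.57% of the 33597 genes were up and 5.03% down, and of the 15888 genes as clear of background as the members, called bright here, 5.13% were up and 8.24% down. In CpG versus IFN-γ + αIL-10R 2 of 6 were down (Socs1 and Stat2) and 0 up, while 3.2% of all genes were down and 2.8% up, and 4.85% and 3.74% of the bright genes. In Triple versus CpG 2 of 6 were up (Socs1 and Jak2) and 0 down, while 4.13% of all genes were up and 4.6% down, and 5.99% and 7.01% of the bright genes. The median log2 fold of the members was 0.23, −0.35, and 0.54 in the same order, beside −0.04, 0.00, and −0.05 over the bright genes. With 6 members, a count of 1 is near the background, and a count of 2 rests on the genes named.

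The other genes of the pathway were taken from 8 lists of 87 genes, of which 85 were measured. Across these lists, 18 genes were past 2-fold in Triple versus IFN-γ + αIL-10R, 41 in CpG versus IFN-γ + αIL-10R, and 43 in Triple versus CpG. In the same order, 8.6%, 5.99%, and 8.73% of all genes were past 2-fold in either direction, and 13.4%, 8.59%, and 13% of the bright genes. The lists were drawn from textbook roles with results of these arrays already known.

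Signal transducers beside the members were few. Jak3 gave 778 in CpG, 983 in IFN-γ + αIL-10R, and 982 in Triple, all within 2-fold, and Tyk2 was left out because a spot carried an outlier mark. Of 5 other STAT genes, 1 was up in Triple versus IFN-γ + αIL-10R, 1 was down in CpG versus IFN-γ + αIL-10R, and 1 was up in Triple versus CpG. Stat3, which acts downstream of IL-10 and IL-6, gave 11112 in CpG, 24101 in IFN-γ + αIL-10R, and 31432 in Triple, which was 2.21-fold lower in CpG than in IFN-γ + αIL-10R and 2.94-fold higher in Triple than in CpG. Its other probe gave −1.01 and 1.62 on the log2 scale for these comparisons. Stat3 was thus lowest in CpG, as was Stat2. Stat4, the STAT of IL-12 signaling, was up in Triple versus IFN-γ + αIL-10R at 2.01-fold, close to the threshold, with signals of 275, 181, and 356.

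Of the SOCS relatives past 2-fold, Cish shared the array order of Socs1 and Socs3 did not. Of 7 other SOCS genes, 2 were up in Triple versus IFN-γ + αIL-10R, 1 was up and 1 down in CpG versus IFN-γ + αIL-10R, and 2 were up in Triple versus CpG. Socs3, the inhibitor of receptors that use gp130, gave 17358 in CpG, 8207 in IFN-γ + αIL-10R, and 52485 in Triple. The order was thus opposite to that of Socs1 between the first 2 arrays, with log2 folds of 1.06 for CpG versus IFN-γ + αIL-10R, 2.71 for Triple versus IFN-γ + αIL-10R, and 1.65 for Triple versus CpG. Cish, which restrains STAT5 signaling, gave 68.1, 138, and 326 and ranked the arrays as Socs1 did, at −1.04, 1.27, and 2.31. Socs2 was not well above background on any array, and the remaining members of the family, Socs4, Socs5, Socs6, and Socs7, were within 2-fold in every comparison.

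Of 11 other genes for PIAS proteins, phosphatases, and adaptors that restrain this pathway, 0 were past 2-fold in Triple versus IFN-γ + αIL-10R, 0 in CpG versus IFN-γ + αIL-10R, and 1 in Triple versus CpG. The latter was Usp18, which blocks the type I interferon receptor, with signals of 18597 in CpG, 23896 in IFN-γ + αIL-10R, and 37265 in Triple and a fold of 2.08 in Triple versus CpG. Ptpn2, a phosphatase that acts on JAK kinases and STATs, lay just inside the threshold there, with signals of 2566, 4807, and 4920 and a log2 fold of 0.99 (1.99-fold). Its other probes passed 2-fold, at 1.30 and 1.04.

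Of 13 measured genes for other receptors that signal through JAK kinases, 3 were down in Triple versus IFN-γ + αIL-10R, 4 were down in CpG versus IFN-γ + αIL-10R, and 3 were up in Triple versus CpG. Il12rb1, a chain of the receptors for IL-12 and IL-23, gave 30.7 in CpG, 18294 in IFN-γ + αIL-10R, and 4446 in Triple. It was 606-fold lower in CpG than in IFN-γ + αIL-10R and 4.03-fold lower in Triple, and its other probe gave a smaller log2 fold for CpG, −4.83 in place of −9.24. Il12rb2, the other chain of the IL-12 receptor, gave 75.7, 362, and 85.6, and was down versus IFN-γ + αIL-10R in CpG and in Triple. Il21r, at 1026, 1785, and 728, was down in Triple versus IFN-γ + αIL-10R by 2.40-fold. Il10ra and Il2rg were down in CpG versus IFN-γ + αIL-10R by 2.37-fold and 2.12-fold, and Il2rg, Csf2rb, and Il12rb1 were those up in Triple versus CpG. Il10ra encodes the ligand-binding chain of the IL-10 receptor, and Il2rg the common gamma chain. The 3 receptors down in Triple versus IFN-γ + αIL-10R were at log2 folds of −2.01, −2.05, and −1.26. Ifngr1, at −0.70, was within 2-fold there, as were Il6ra at −0.83, Ifnar2 at −0.63, and Il4ra at −0.99 (−0.12 by its other probe). The median over the 13 receptors was −0.46, and 4 had a positive fold.

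The 5 ligand genes with a signal well above background were highest in Triple. Of 8, 5 were up in Triple versus IFN-γ + αIL-10R, 3 were up and 1 down in CpG versus IFN-γ + αIL-10R, and 5 were up in Triple versus CpG. Il6, which signals through gp130 and STAT3, gave 319 in CpG and 24279 in Triple and was not well above background in IFN-γ + αIL-10R, which makes Triple at least 930-fold higher. Il12b, a subunit of IL-12 and IL-23, gave 71.8 in CpG and 8242 in Triple and was at least 316-fold higher in Triple than in IFN-γ + αIL-10R. A fold written as at least a value was taken against the lowest signal that was well above background on the dim array, or against the gene's own signal there where that was higher. Il10 gave 3117, 1271, and 9957, and Il27 gave 387, 806, and 4030. Ifnb1, the type I interferon whose receptor activates STAT2, was well above background in Triple alone, at 173, at least 6.64-fold above IFN-γ + αIL-10R and at least 7.35-fold above CpG. Ifng itself, with Csf2 and Il12a, was not well above background on any array.

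Target genes of the pathway separated CpG from the arrays with IFN-γ + αIL-10R, as Socs1 did. Of 22 IFN-γ target genes, 20 were down in CpG versus IFN-γ + αIL-10R and 20 were up in Triple versus CpG, with median log2 folds of −2.88 and 3.40. In Triple versus IFN-γ + αIL-10R 5 were up, 1 was down, and 16 were within 2-fold, with a median of 0.26. Cxcl9, a chemokine for activated T cells, gave 38.6 in CpG, 14431 in IFN-γ + αIL-10R, and 230855 in Triple. Nos2, which makes nitric oxide, gave 155, 448, and 72449, so that most of its range lay between IFN-γ + αIL-10R and Triple, at 165-fold. Gbp4, a guanylate-binding protein gene, gave 136, 29413, and 70865.

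Cxcl10 and Gbp5 were 53.1-fold and 59.5-fold lower in CpG than in IFN-γ + αIL-10R and did not pass 2-fold between IFN-γ + αIL-10R and Triple, at log2 folds of 0.99 and 0.80 beside 0.35 for Socs1. The other probe of Cxcl10 gave 1.80 there, past 2-fold. The other probe of Gbp5 gave a log2 fold of −1.08 in place of −5.89 for CpG. Beside Cxcl9, Nos2, and Gbp4, the genes up in Triple versus IFN-γ + αIL-10R were Cd274 and Ido1, with log2 folds of 1.51 for Cd274 and at least 2.75 for Ido1. The gene down in Triple versus IFN-γ + αIL-10R was Ciita, the activator of MHC class II genes, which gave 114, 258, and 63.3. Cxcl11 was within 2-fold in every comparison, and its probes gave opposite signs in Triple.

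Of 18 ISGF3 target genes, the group that STAT2 serves, 10 were down in CpG versus IFN-γ + αIL-10R and 11 were up in Triple versus CpG, with median log2 folds of −1.18 and 1.07, beside −1.02 and 0.95 for Stat2. In Triple versus IFN-γ + αIL-10R 0 were up and 1, Ifit3, was down, with a median of 0.03. Ifit2, Mx1, Rsad2, Cmpk2, and Ifi44 were 6.24-, 5.80-, 5.15-, 5.06-, and 4.55-fold lower in CpG than in IFN-γ + αIL-10R. Irf9, the partner of STAT2 in ISGF3, did not follow Stat2. It gave 12297 in CpG, 11946 in IFN-γ + αIL-10R, and 12936 in Triple, with log2 folds of 0.02, 0.15, and 0.13 for CpG versus IFN-γ + αIL-10R, Triple versus IFN-γ + αIL-10R, and Triple versus CpG.

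**Figure D3:**
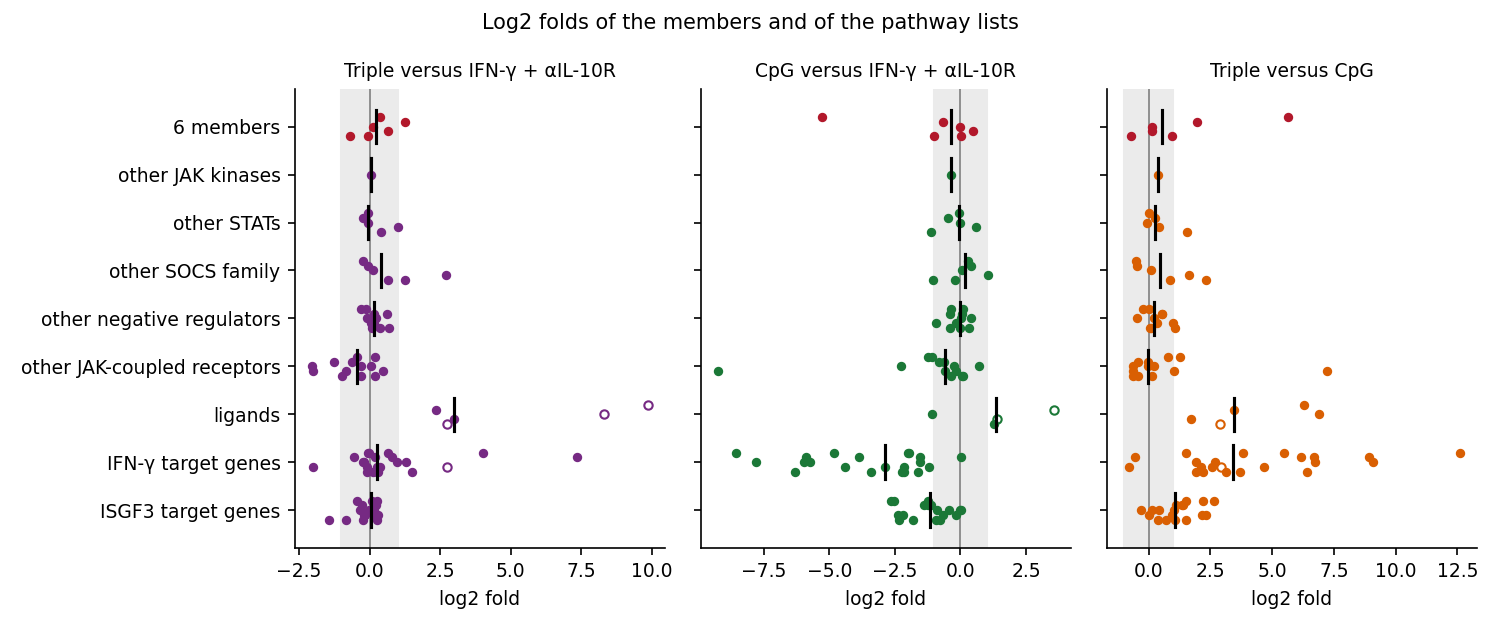
Log2 folds of the 6 members (red) and of the genes of 8 pathway lists in the 3 comparisons, 1 point per gene, with the median of each list as a bar and the range inside 2-fold shaded. Open points are bounds, where the dimmer array was not well above background, and genes not well above background on either array are left out. IFN-γ target genes lie mostly to the left in CpG versus IFN-γ + αIL-10R, with 20 of 22 down, and around 0 in Triple versus IFN-γ + αIL-10R.

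For the members past 2-fold, the nearest profiles over the 3 arrays were sought among 10539 genes with a symbol among the bright genes. The measure was the Euclidean distance between log2 values from which the gene's own mean had been taken. With 3 arrays such a likeness is a description, and it is common for small differences. For Jak2, 145 genes lay within a distance of 0.5, and the nearest were Tnfrsf9, a costimulatory receptor of the TNF receptor family, at 0.0087, Tmprss3, a membrane serine protease, at 0.076, and Zfp800, a zinc finger gene, at 0.079. Tnfrsf9 gave log2 folds of 1.25, −0.68, and 1.93 for Triple versus IFN-γ + αIL-10R, CpG versus IFN-γ + αIL-10R, and Triple versus CpG, beside 1.26, −0.68, and 1.94 for Jak2. For Stat2, 736 genes lay within 0.5, led by L3mbtl3 at 0.028, Trim12c at 0.030, and Soat2 at 0.050.

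Socs1 had few neighbors, with 3 genes within 0.5. They were Gbp6, a guanylate-binding protein gene from the IFN-γ target list, at 0.33, Slamf8, a SLAM family receptor gene of myeloid cells, at 0.48, and Batf2, a bZIP transcription factor gene, at 0.49. Batf2 gave 1902 in CpG, 48176 in IFN-γ + αIL-10R, and 59910 in Triple, with log2 folds of −4.69 for CpG versus IFN-γ + αIL-10R and 0.35 for Triple versus IFN-γ + αIL-10R. The corresponding folds of Socs1 were −5.29 and 0.35, so that its neighbors differed from it mainly by a smaller drop in CpG or a larger step in Triple.

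**Figure D4:**
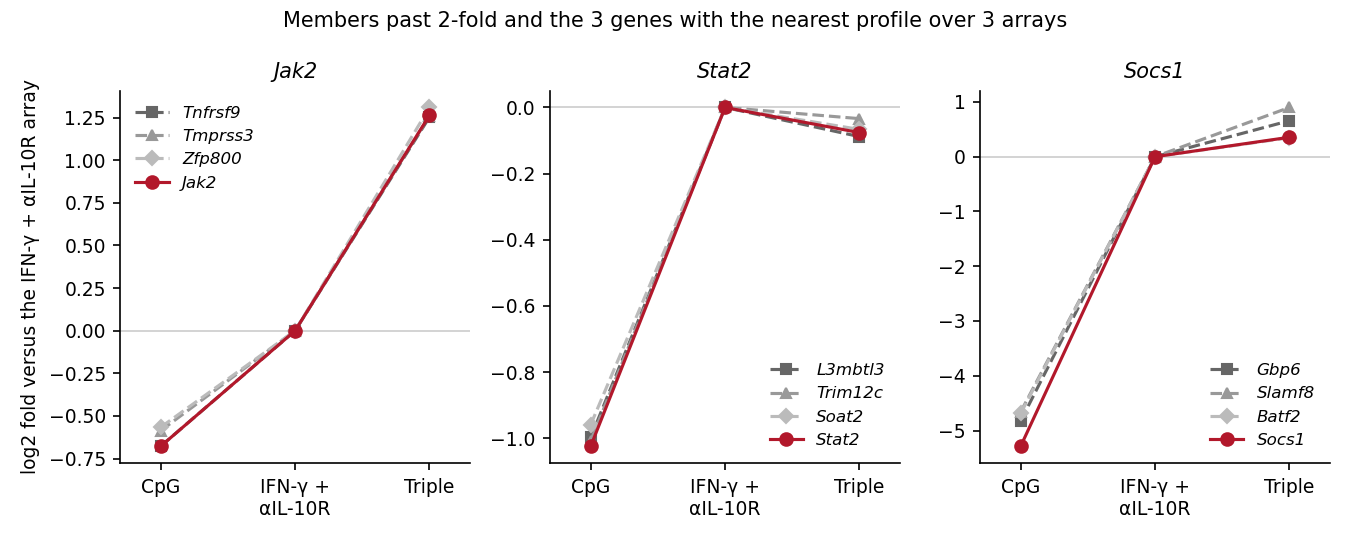
Log2 fold of Jak2, Stat2, and Socs1 (red) over the IFN-γ + αIL-10R array, with the 3 genes of nearest profile for each (gray), 1 array per condition. The vertical axes differ by panel. Jak2 and its neighbors climb from CpG to Triple, Stat2 and its neighbors are low in CpG and level elsewhere, and Socs1 drops furthest in CpG, to −5.29.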

How the data were processed

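RNA of 3 BMDM cultures was hybridized in 1 color, 1 array per condition. Per the file headers, the authors extracted intensity values with Agilent Feature Extraction 10.10.1.1, and the probes were placed on mm9. The deposited processed signal is an intensity with a fitted background subtracted and no scaling between arrays. It is not the result of that subtraction alone. For Ifngr1 in CpG the processed signal was 13427, above the mean signal of the spot, 12461. A further deposited table holds log2 values and equaled the log2 processed signal minus a constant per array (signals of 368, 373, and 338) to within 0.0005 for 55249 probes with 1 spot, and was used as an alternative.

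Control spots and spots with any of the software's outlier marks (3.04%, 3.78%, and 3.33%) were left out, log2 signals were averaged within a probe, and the 75th percentile of the 21233 probes that cleared background on every array was subtracted, because under 50% of the spots were well above background (46.0%, 44.8%, and 44.4%). Dim signals were raised to the lowest signal well above background. A gene was its probe with the highest mean. The number of arrays limits the precision, and no p-value was computed. The calling code was run on simulated data with the measured spot noise. The simulated folds lay well past the threshold, and no difference between cultures was simulated. This run therefore says nothing on calls near 2-fold or on what a replicate would show.

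The members and lists were chosen with earlier results of these data known. Named were all members, up to 5 genes per list past 2-fold with the largest folds, and the 3 nearest profiles for each member past 2-fold. Jak3, Csf2rb, Ptpn2, Cd274, Ido1, Ciita, Cxcl11, Ifit3, Irf9, genes named as not past 2-fold or not well above background, and markers were named after their values were seen. Adgre1 is Emr1 on the array. Tyk2, Ifnlr1, Lyz2, and Dcn had outlier marks, and Hbb-bt was not matched. Some genes of these lists are not reported here and were left out of their counts. RefSeq tables (GRCm38.p6) gave upstream windows for all 6 members. Alternatives were other scalings (75th percentile over all probes, median, quantile, none, spike-in, Actb), normexp (offset 50, limma 3.58.1, R 4.3.3), the authors' table, other filters and probe rules, outlier spots kept, and thresholds of 1.5-fold and 3-fold. Python 3.11.15, numpy 2.4.6, and pandas 2.3.3 were used.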

Additional observations from a re-analysis of the deposited data

How the results depend on the processing

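Of 216 member folds under 12 alternatives, 210 moved by less than the technical SD and 6 by more. Many of the 210 could not move. Each member had 1 RefSeq probe, well above background, so dropping the background filter, averaging all probes, or keeping RefSeq mRNA probes alone left its folds as they were. The 6 are 1 common shift, because spike-in scaling moves every fold of a comparison equally. They fell in Triple versus IFN-γ + αIL-10R, where the median of all bright genes shifted from −0.04 to −0.18 and that of the members from 0.23 to 0.10. Over the scalings that median ranged from −0.18 to 0.07. The technical SD here is that over all probes with replicate spots. By the smaller SD over the signal range of the members, 0.070 in Triple versus IFN-γ + αIL-10R, more folds moved. Jak2 there was 1.26 in the main setting, 1.38 with the 75th percentile over all probes, 1.37 with median scaling, and 1.17 relative to Actb. In CpG versus IFN-γ + αIL-10R, 1 member (Socs1) in place of 2 passed 2-fold with the 75th percentile over all probes, median scaling, no scaling, and the authors' table, and 1 passed 3-fold. In Triple versus IFN-γ + αIL-10R, 3 members passed 1.5-fold and 0 passed 3-fold, and 4 passed 1.5-fold in Triple versus CpG. There 3 members in place of 2, Stat2 added, passed 2-fold with the 75th percentile over all probes, median scaling, and the authors' table (Stat2 at 1.01, 1.02, and 1.01). Of the pathway lists, 28 genes passed 1.5-fold in Triple versus IFN-γ + αIL-10R and 26 passed 3-fold in CpG versus IFN-γ + αIL-10R. The other scalings, filters, and probe rules left the remaining counts of members and of list genes within 1.5 times. Without the background filter, 2522 genes were up and 3088 down in Triple versus IFN-γ + αIL-10R, with normexp 809 and 1101, and in the main setting 1199 and 1689. The fold differences between arrays have no replicate, and the signals of Stat4 and Cish were the dimmest behind a call on a STAT or SOCS gene. No paired analysis was possible because no condition had more than 1 array.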
